A study of Mus musculus with 6 samples.

Results

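The subject is a set of 10 transcription factors that direct the stratification of mouse epidermis, measured in keratinocytes of LAMA3-deficient mice, whose skin is depleted of laminin 332, and of control mice. The set comprises Trp63, Grhl1, Grhl3, Klf4, Gata3, Ovol1, Cebpa, Cebpb, Prdm1 and Maf, named by gene symbol for their known roles in skin. It was chosen with earlier results of these data known. All 10 were found among the 45513 identifiers of the count table, each under 1 Ensembl identifier, and all 10 passed the filter on low counts that left 15513 genes for testing. The knockout group held 3 Lama3flox/flox/K14-CreERT mice, labelled LAMA3-deficient. The control group held 3 Lama3wt/flox / K14-CreERT mice, whose genotype label reads wild type, so both groups carried the Cre transgene and at least 1 floxed allele. The floxed segment spans exons 50 to 53 of Lama3 on a C57BL/6 background. The recombinase is driven by the keratin 14 promoter and switched on by tamoxifen, given in chow at 400 mg per kg, so that deletion takes place in basal keratinocytes and is inherited by their descendants, while other cells of the skin keep the gene. The labels do not say separately which mice ate the chow, and give no age. RNA came from isolated keratinocytes and was read as paired 100-base reads, with 1 library per mouse.

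The epidermis renews itself from a basal layer whose cells stop dividing, leave the basement membrane and pass through the spinous and granular layers to the cornified surface. p63, encoded by Trp63, sets up the stratified epithelial programme and maintains the basal layer, and factors such as C/EBP alpha and beta, KLF4, GRHL3 and Blimp1 (encoded by Prdm1) act as cells commit, mature and form the barrier. Laminin 332, of which Lama3 encodes the alpha chain, is the adhesive protein of the basement membrane to which basal keratinocytes are anchored.

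Total counts lay between 24192158 and 28473479 in the knockout libraries and between 20126395 and 25429816 in the control libraries. Levels are given as CPM, a gene's counts scaled to a common library total with TMM (trimmed mean of M-values) factors. Differences are log2 fold changes of knockout over control, each with its standard error (SE). A gene was called higher or lower where edgeR's quasi-likelihood test gave a Benjamini-Hochberg adjusted p under 0.05, with the adjustment made over the 15513 genes. Where no other tool is named, an adjusted p is edgeR's. Lama3 itself was at 97.3, 98.9 and 79.2 CPM in knockouts 1, 2 and 3 and at 141, 142 and 114 CPM in controls 1, 2 and 3, a log2 fold change of -0.53 (SE 0.14, adjusted p = 0.0215), and the counts also cover exons outside the deletion. That call was lost without knockout 1, control 1 or control 2 (edgeR's adjusted p = 0.0551, 0.0620 and 0.0584). The keratinocyte keratins Krt5 and Krt14 were abundant throughout, between 6313 and 8803 CPM and between 4069 and 5291 CPM in knockouts, against 6988 to 9664 CPM and 3707 to 4723 CPM in controls. Defining markers of neutrophils (Ly6g at 0 in every library, Csf3r at most 0.0363 CPM in knockouts and 0.0431 CPM in controls) were at or near 0. Summed over 5 markers each, endothelium was at 1.61 to 2.27 CPM in knockouts and 3.05 to 4.72 CPM in controls, and muscle at 0.465 to 6.17 CPM in knockouts and 1.26 to 4.10 CPM in controls. Of 5 melanocyte markers 4 fell, of 6 fibroblast markers 2 fell and of 6 Langerhans cell markers 1 fell, with none higher. Among all genes tested 18.8% fell and 17.4% rose, shares that belong beside each count of markers here and below. The Langerhans cell marker that fell, Cd207, overlapped between the groups, at 18.2 to 31.3 CPM in knockouts and 28.6 to 124 CPM in controls. When upper-quartile factors replaced TMM, the median log2 fold change of all genes was -0.17 and not -0.02, and 30.6% of called genes were higher and not 48.0%.

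Of the 10 factors, 5 were called higher in the knockouts, none was called lower and 5 were not called. Among all genes tested 17.4% were called higher, 18.8% lower and 36.2% either way. The 5 that rose were the grainyhead-like genes Grhl1 and Grhl3, the C/EBP genes Cebpa and Cebpb, and Prdm1, with folds between 1.55 and 1.98. The median log2 fold change of the 10 was 0.60, against -0.02 for all genes tested. In 6 of the 10 every knockout library lay above every control library, which held for 25.2% of all genes tested, and in none did every knockout lie below every control, which held for 26.5%. As these are bulk samples, more cells of a layer and more RNA per cell cannot be told apart.

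**Figure D1:**
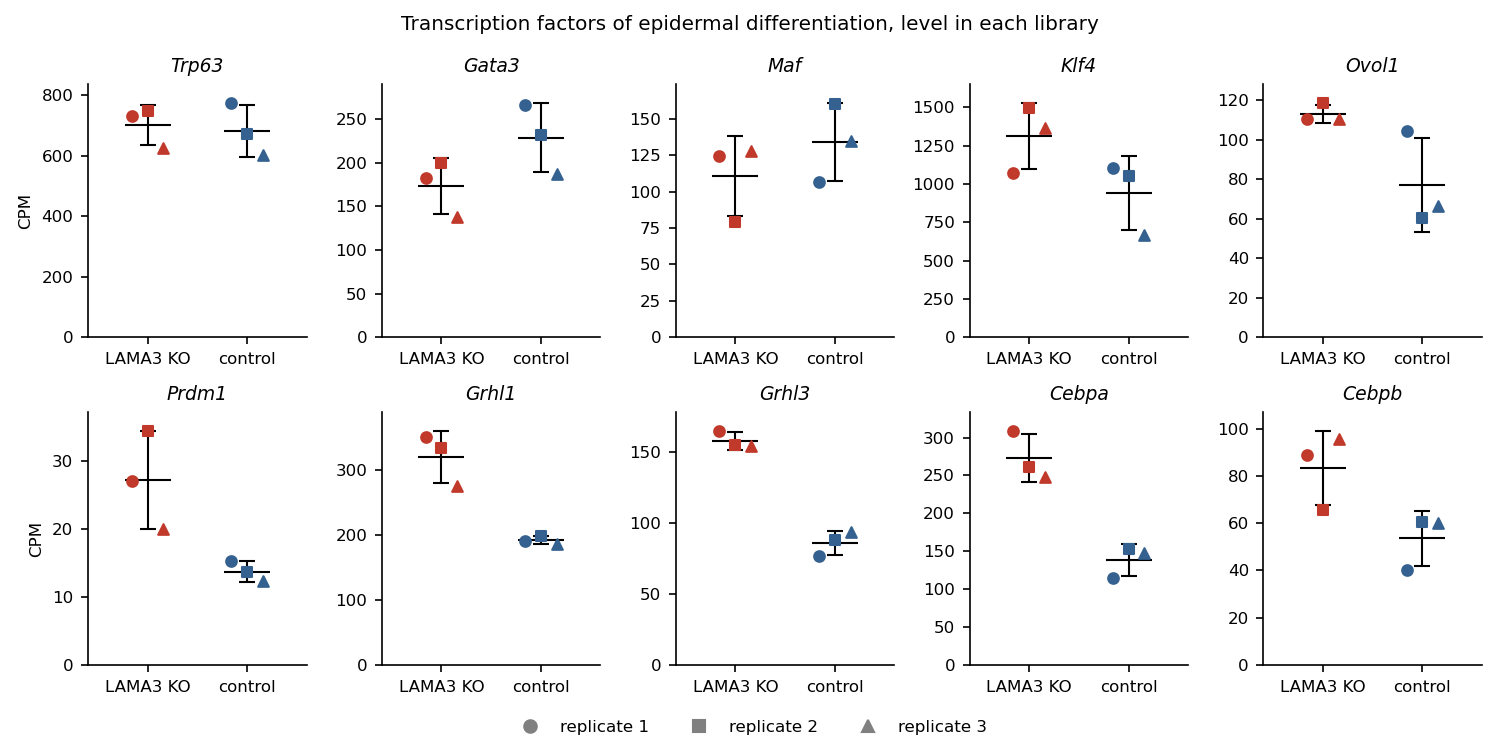
Level in CPM (linear axes from 0) of each of the 10 factors in 3 LAMA3 KO libraries (red, left) and 3 control libraries (blue, right), with mean and SD in black. Grhl1, Grhl3, Cebpa, Cebpb, Prdm1 and Ovol1 show no overlap between the groups, while Trp63, Gata3, Maf and Klf4 do.

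Trp63 (ENSMUSG00000022510, GRCm38 chromosome 16, 25683763 to 25892102, plus strand) was among the most abundant of the factors and was not called. Its level was 731, 748 and 625 CPM in knockouts 1, 2 and 3, against 773, 670 and 601 CPM in controls 1, 2 and 3. The groups overlapped through most of their range, with the highest and the lowest of the 6 values both in controls. The log2 fold change was 0.04 (SE 0.17, adjusted p = 0.862), whose sign turned negative under 4 of 16 alternatives, upper-quartile factors among them. A gene count adds the long TA and the shorter delta-N transcripts of Trp63, which start at different promoters, so no statement on isoforms can be made from it.

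Grhl3 (ENSMUSG00000037188, chromosome 4, 135541888 to 135573630, minus strand) encodes a factor that mouse skin needs to form its barrier and to close wounds, and that activates the transglutaminase gene Tgm1. It stood at 164, 154 and 154 CPM in knockouts 1, 2 and 3, against 76.8, 87.5 and 93.4 CPM in controls 1, 2 and 3. The knockout libraries lay close together, with a coefficient of variation of 3.85%, and the lowest of them was 60.3 CPM above the highest control. The rise was 1.83-fold (log2 fold change 0.87, SE 0.11, adjusted p = 0.00232), the smallest p of the 10 factors.

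Grhl1 (ENSMUSG00000020656, chromosome 12, 24572283 to 24617391, plus strand) encodes the relative of GRHL3 that sustains desmosomal cadherin expression and hair anchorage in mice. It was measured at 351, 334 and 275 CPM in knockouts 1, 2 and 3, and at 191, 199 and 186 CPM in controls 1, 2 and 3. Here the controls were the tight group, with a coefficient of variation of 3.34%, and knockout 3 lay below the other 2 knockouts but above every control. The rise was 1.67-fold (log2 fold change 0.74, SE 0.14, adjusted p = 0.00693). Grhl1 held 68.1%, 68.4% and 64.1% of the summed Grhl1 and Grhl3 counts in knockouts 1, 2 and 3, against 71.4%, 69.4% and 66.5% in controls 1, 2 and 3. The difference of the mean shares was -2.22 percentage points, and the groups overlapped. The 2-sided exact permutation p was 0.4, with 0.1 the smallest that 3 against 3 allows, so this test could not reach 0.05.

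Cebpa (ENSMUSG00000034957, chromosome 7, 35119293 to 35121928, plus strand) encodes C/EBP alpha, which with C/EBP beta takes mouse basal keratinocytes out of the cell cycle and into differentiation. Its level was 309, 262 and 248 CPM in knockouts 1, 2 and 3, against 114, 153 and 148 CPM in controls 1, 2 and 3. Every knockout was at least 95.0 CPM above the highest control. The rise was 1.97-fold (log2 fold change 0.98, SE 0.16, adjusted p = 0.00427).

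Cebpb (ENSMUSG00000056501, chromosome 2, 167688915 to 167690418, plus strand) stood at 89.0, 65.6 and 95.5 CPM in knockouts 1, 2 and 3, and at 40.2, 60.5 and 60.3 CPM in controls 1, 2 and 3. The groups did not overlap, but knockout 2 was 5.04 CPM above control 2, and control 1 lay apart from the other controls. The rise was 1.55-fold (log2 fold change 0.63, SE 0.20, adjusted p = 0.0404). This call was lost without knockout 1, knockout 3, control 1 or control 3 (edgeR's adjusted p = 0.108, 0.0967, 0.0917 and 0.0646) and with upper-quartile factors (0.0956). Cebpa took 77.6%, 80.0% and 72.2% of the summed Cebpa and Cebpb counts in knockouts 1, 2 and 3, and 73.9%, 71.7% and 71.1% in controls 1, 2 and 3. The difference of the mean shares was 4.37 percentage points. Knockouts 1 and 2 lay above all controls, and knockout 3 lay within their range. The 2-sided exact permutation p was 0.2, in a test that could not go below 0.1. The exons of Cebpb overlap those of Tmem189 on the other strand by 312 bases in the GENCODE M21 annotation, and Tmem189 held 664 to 898 counts in knockouts and 541 to 605 in controls.

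Prdm1 (ENSMUSG00000038151, chromosome 10, 44437177 to 44528501, minus strand) encodes Blimp1, a repressor of the late granular stage that is also made in sebaceous cells and in lymphocytes. It was the least abundant of the set, at 26.9, 34.3 and 20.0 CPM in knockouts 1, 2 and 3 and at 15.3, 13.6 and 12.3 CPM in controls 1, 2 and 3. Knockout 2 was the highest and knockout 3 the lowest of the knockouts, and all 3 stood above the controls. The rise was 1.98-fold (log2 fold change 0.98, SE 0.20, adjusted p = 0.00980). The 7 T cell markers all fell in the same libraries (summed level 64.1 to 73.6 CPM in knockouts, 143 to 284 CPM in controls), as did 3 of 7 sebocyte markers, with 1 higher. The sebocyte sum was 765 to 1375 CPM in knockouts and 1116 to 1472 CPM in controls. The part of these cells in the Prdm1 result was not tested.

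Monocytes and macrophages also express Cebpa and Cebpb. Of their 7 markers 2 rose and none fell, and their summed level was 39.5 to 59.6 CPM in knockouts and 31.0 to 65.5 CPM in controls. The median log2 fold change of the 7 was -0.31, and 1 marker was called lower without knockout 3. Fcgr3 lay below every control in all knockouts, at 1.31 to 2.32 CPM against 2.48 to 3.72 CPM in controls. It was not called (log2 fold change -0.74, SE 0.30, adjusted p = 0.0894). Also not called were Csf1r (0.40), Adgre1 (-0.38), Lyz2 (-0.31) and Cd68 (-0.60). The 2 that rose, named after their values were seen, were the complement genes C1qa and C1qb, and neither overlapped between the groups. C1qa was at 3.30, 4.61 and 7.04 CPM in knockouts 1, 2 and 3, against 1.42, 0.810 and 1.34 CPM in controls 1, 2 and 3 (log2 fold change 2.06, SE 0.36, adjusted p = 0.00592). C1qb was at 1.18, 1.78 and 2.43 CPM in knockouts 1, 2 and 3, against 0.560, 0.429 and 0.708 CPM in controls 1, 2 and 3 (log2 fold change 1.66, SE 0.38, adjusted p = 0.0139). The defining marker Csf1r was at 26.6 to 37.8 CPM in knockouts and at 12.2 to 36.5 CPM in controls, and Adgre1 at 3.00 to 5.55 CPM in knockouts and 2.53 to 9.69 CPM in controls. S100a8, listed among neutrophil markers and also made by stressed keratinocytes, was at 56.2 to 656 CPM in knockouts, against 2.11 to 18.3 CPM in controls. Its 6 companion markers on that list were below the filter. The part of these cells in the Cebpa and Cebpb result was not tested.

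The promoters of 4 of the 5 factors that rose are printed here, as those whose window held one of the motifs searched. RefSeq (GRCm38.p6) gave promoters for 7 of the 10 genes, 8 windows in all, and the 250 bases before each start site were searched on both strands. The grainyhead-like motif was written AACCNGTT, the C/EBP motif TTGCNNAA and the KLF motif GGGNGTGG. The letters searched for the GATA factors were GATAAG, those for the AP-1 family were TGANTCA, those for the MAF family were TGCTGA, and a TATA box was taken to be TATAAA. Capitals mark the matches, and no printed match overlaps another. Cebpb (chr2:167688665-167688914, plus strand), Grhl3 (chr4:135573633-135573882, minus strand) and Prdm1 (chr10:44458749-44458998, minus strand) each hold a KLF match on the reverse strand. Prdm1 also holds an AP-1 match, and Cebpa (chr7:35119043-35119292, plus strand) a TATA box. All 4 are written 5′ to 3′ in the direction of the gene.
Cebpa: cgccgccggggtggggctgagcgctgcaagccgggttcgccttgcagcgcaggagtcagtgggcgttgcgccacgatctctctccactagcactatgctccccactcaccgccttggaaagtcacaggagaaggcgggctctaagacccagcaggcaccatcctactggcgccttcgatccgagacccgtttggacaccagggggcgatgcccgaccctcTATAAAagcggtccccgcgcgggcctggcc
Cebpb: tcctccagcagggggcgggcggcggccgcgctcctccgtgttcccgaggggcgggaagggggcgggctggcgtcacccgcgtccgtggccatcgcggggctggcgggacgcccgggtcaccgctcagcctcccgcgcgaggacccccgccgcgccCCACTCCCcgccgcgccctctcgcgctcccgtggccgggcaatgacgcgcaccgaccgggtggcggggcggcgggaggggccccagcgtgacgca
Grhl3: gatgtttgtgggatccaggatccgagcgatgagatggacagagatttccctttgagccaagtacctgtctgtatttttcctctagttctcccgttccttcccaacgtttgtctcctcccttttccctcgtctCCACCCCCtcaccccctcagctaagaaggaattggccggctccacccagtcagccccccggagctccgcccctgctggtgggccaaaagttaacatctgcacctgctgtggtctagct
Prdm1: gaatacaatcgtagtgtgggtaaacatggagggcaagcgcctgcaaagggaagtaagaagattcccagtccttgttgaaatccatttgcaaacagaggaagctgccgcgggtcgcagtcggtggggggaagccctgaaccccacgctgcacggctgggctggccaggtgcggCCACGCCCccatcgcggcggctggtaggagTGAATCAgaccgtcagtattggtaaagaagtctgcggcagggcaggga
The KLF motif was present in 4 of the 8 windows (Gata3, Cebpb, Grhl3 and Prdm1), and in 15.9% of 32851 promoter windows of the same length. The 8 windows were 52.0% to 81.6% G and C, with a median of 52.4% over all windows, and the motif is itself rich in G. The TATA box in Cebpa began 30 bases before the start site, and the motif was found in 12.4% of all windows. The AP-1 and MAF motifs were each in 1 of the 8 windows (Prdm1 for AP-1, Gata3 for MAF), and in 6.75% and 16.1% of all windows. The grainyhead-like, C/EBP and GATA letters were in none of the 8, and in 1.79%, 9.56% and 6.55% of all windows.

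Klf4 (ENSMUSG00000003032, chromosome 4, 55527143 to 55532466, minus strand) encodes a zinc finger factor of the upper layers without which mice do not acquire a barrier, and was the most abundant of the set. It was at 1073, 1493 and 1367 CPM in knockouts 1, 2 and 3, against 1104, 1054 and 664 CPM in controls 1, 2 and 3. Knockouts 2 and 3 lay above all controls, knockout 1 lay between controls 1 and 2, and control 3 was far below the other controls. The log2 fold change of 0.48 (SE 0.25) was not called (adjusted p = 0.160), nor was it under any of the 16 alternatives, whose log2 values ran between 0.28 and 0.61.

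Ovol1 (ENSMUSG00000024922, chromosome 19, 5549136 to 5560646, minus strand) encodes a zinc finger repressor that limits the proliferation of epidermal progenitors in mouse embryos. It was at 111, 118 and 110.4 CPM in knockouts 1, 2 and 3, and at 104, 60.3 and 66.5 CPM in controls 1, 2 and 3. All knockouts exceeded all controls, but control 1 was only 6.24 CPM below the lowest knockout. The log2 fold change of 0.56 (SE 0.20) missed the threshold (adjusted p = 0.0618). It was called under 3 of the 16 alternatives, whose log2 values ran between 0.41 and 0.84. Without control 1 it was 0.84 and called (edgeR's adjusted p = 0.00719). It was also called by DESeq2 (adjusted p = 0.0293) and when low counts were not filtered out (edgeR's adjusted p = 0.0334). With sex as a covariate it was 0.47 and not called (edgeR's adjusted p = 0.0602). In GENCODE M21 the exons of Ovol1 overlap Gm31166 by 690 bases and AC126029.1 by 76 bases, both on the other strand. Neither was in the count table, and their part in the Ovol1 counts was not tested.

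Gata3 (ENSMUSG00000015619, chromosome 2, 9857078 to 9890034, minus strand) encodes a factor of barrier lipid synthesis and of the inner root sheath of the hair follicle, which T cells also express. It was at 183, 199 and 138 CPM in knockouts 1, 2 and 3, against 267, 232 and 188 CPM in controls 1, 2 and 3. Knockout 2 lay above control 3, so the groups overlapped. Its log2 fold change was -0.40 (SE 0.18), not called (adjusted p = 0.122), but called lower with upper-quartile factors (-0.55, edgeR's adjusted p = 0.0427) and with sex as a covariate (-0.54, 0.0277). Xist and Ddx3y counts placed knockouts 1 and 2 and control 1 as female and the other 3 mice as male. Gata3 averaged 191 CPM in 2 female knockouts and 267 CPM in 1 female control, and stood at 138 CPM in 1 male knockout and 210 CPM on average in 2 male controls. The 8 markers of inner root sheath and hair shaft all fell (summed level 17.3 to 22.9 CPM in knockouts and 91.8 to 319 CPM in controls), as did the T cell markers given above. The defining sheath keratins Krt71 and Krt25 were at 0.314 to 0.653 CPM and 0.0846 to 0.290 CPM in knockouts, against 22.1 to 97.7 CPM and 13.7 to 50.7 CPM in controls. Their part in the Gata3 values was not tested.

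Maf (ENSMUSG00000055435, chromosome 8, 115682942 to 115707794, minus strand) encodes c-MAF, which promotes the differentiation of human keratinocytes and is also a factor of T cells and macrophages. It was at 125, 79.1 and 128 CPM in knockouts 1, 2 and 3, against 107, 160.2 and 135 CPM in controls 1, 2 and 3. Knockouts 1 and 3 lay within the range of the controls and knockout 2 below it. Its log2 fold change was -0.28 (SE 0.22, adjusted p = 0.346), and none of the 16 alternatives called it. Across them it ran between -0.43 and -0.08, the last without knockout 2, and it was -0.12 without control 2. The T cell markers that fell in these libraries are given above, and their part was not tested.

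**Figure D2:**
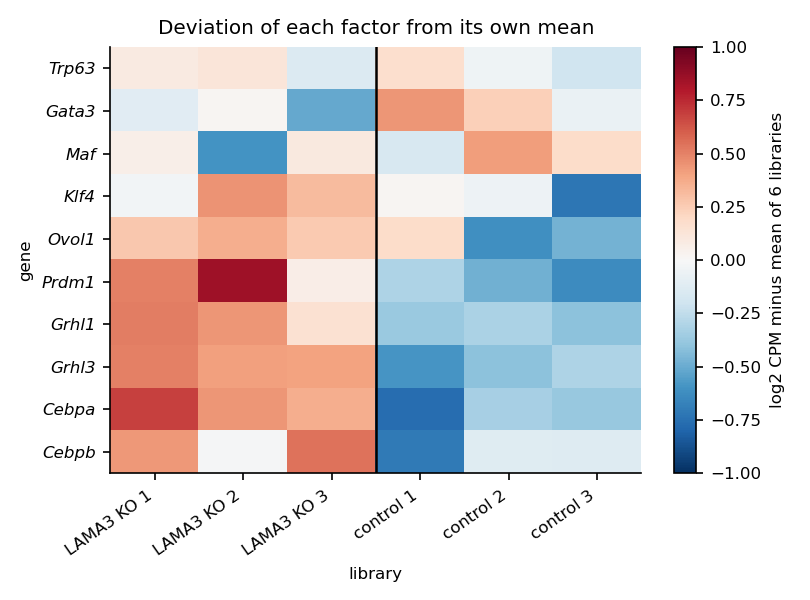
Log2 CPM of each factor minus its own mean over the 6 libraries (colour, red above and blue below the mean), with LAMA3 KO libraries left of the line and control libraries right of it. Grhl1, Grhl3, Cebpa and Prdm1 are above their mean in all 3 knockouts and below it in all 3 controls, and Trp63 stays within 0.20 of its mean.

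Within the groups, the factors did not vary as one block. Trp63, Klf4, Gata3, Ovol1 and Prdm1 had their highest control value in control 1, and the same 5 had their highest knockout value in knockout 2. Control 1 was at the same time the lowest control for Grhl3, Cebpa, Cebpb and Maf, and knockout 2 the lowest knockout for Cebpb and Maf. Knockout 3 was the lowest knockout for 7 factors and the highest for Cebpb and Maf. Control 3 was the lowest control for Trp63, Grhl1, Klf4, Gata3 and Prdm1. Coefficients of variation lay between 3.85% (Grhl3) and 26.5% (Prdm1) in knockouts, and between 3.34% (Grhl1) and 30.8% (Ovol1) in controls.

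To compare levels between genes, CPM was divided by the merged exon length of GENCODE M21 in kilobases. In knockouts Klf4 was the highest at 429.9 ± 70.8 CPM per kb (SD, n = 3 here and below), followed by Cebpa at 104 ± 12.04, Trp63 at 83.6 ± 7.90, Grhl1 at 57.8 ± 7.23, Grhl3 at 56.5 ± 2.17, Cebpb at 55.4 ± 10.5, Gata3 at 43.6 ± 7.96, Ovol1 at 32.4 ± 1.31, Maf at 13.4 ± 3.32 and Prdm1 at 4.86 ± 1.29. In controls the order was Klf4 at 308 ± 79.1 CPM per kb, Trp63 at 81.2 ± 10.3, Gata3 at 57.5 ± 9.97, Cebpa at 52.5 ± 8.06, Cebpb at 35.7 ± 7.74, Grhl1 at 34.6 ± 1.16, Grhl3 at 30.8 ± 3.00, Ovol1 at 22.1 ± 6.81, Maf at 16.3 ± 3.25 and Prdm1 at 2.46 ± 0.272. In knockouts the ranges of mean ± SD overlapped between neighbours from Grhl1 through Grhl3 and Cebpb to Gata3, and Cebpa and Trp63 met at 91.5 CPM per kb. In controls they overlapped between Gata3 and Cebpa, and between each pair of neighbours from Cebpb down to Maf. On this per-length scale Cebpa stood above Trp63 in knockouts and below it in controls. Merged length takes in the exons of all annotated transcripts, 8391 bases for Trp63 and 2636 for Cebpa. For a gene with several transcripts, such as Trp63, this can lower the value per kb by an amount not measured here. The order between genes is therefore approximate. By mean level per length over the 6 libraries, Klf4 was at percentile 99.0 of 15443 genes tested, 7 other factors lay between percentiles 87.8 and 96.1, Maf was at percentile 77.5 and Prdm1 at percentile 42.2.

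Paralogs of the factors outside the set were set beside them, chosen by family after their values were seen. Cebpd, the third C/EBP gene considered, was at 79.8, 86.8 and 77.4 CPM in knockouts 1, 2 and 3, against 31.0, 29.0 and 16.4 CPM in controls 1, 2 and 3. With a log2 fold change of 1.68 (SE 0.23, adjusted p = 0.00269), it rose as Cebpa and Cebpb did. Grhl2, which epithelial cells use for their cell junctions, was at 93.2 to 97.1 CPM in knockouts and at 88.6 to 103 CPM in controls, with a log2 fold change of 0.03 (SE 0.10, adjusted p = 0.851) that turned negative with upper-quartile factors. Ovol2 (0.66, SE 0.32), Klf3 (0.38, SE 0.14) and Klf5 (0.02, SE 0.13, negative with upper-quartile factors) were not called either. Ovol2 was at 11.4, 21.4 and 9.58 CPM in knockouts 1, 2 and 3, against 11.2, 8.58 and 7.11 CPM in controls 1, 2 and 3, and its log2 fold change was 0.23 without knockout 2. Klf3 was called by DESeq2 (adjusted p = 0.0327).

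**Figure D3:**
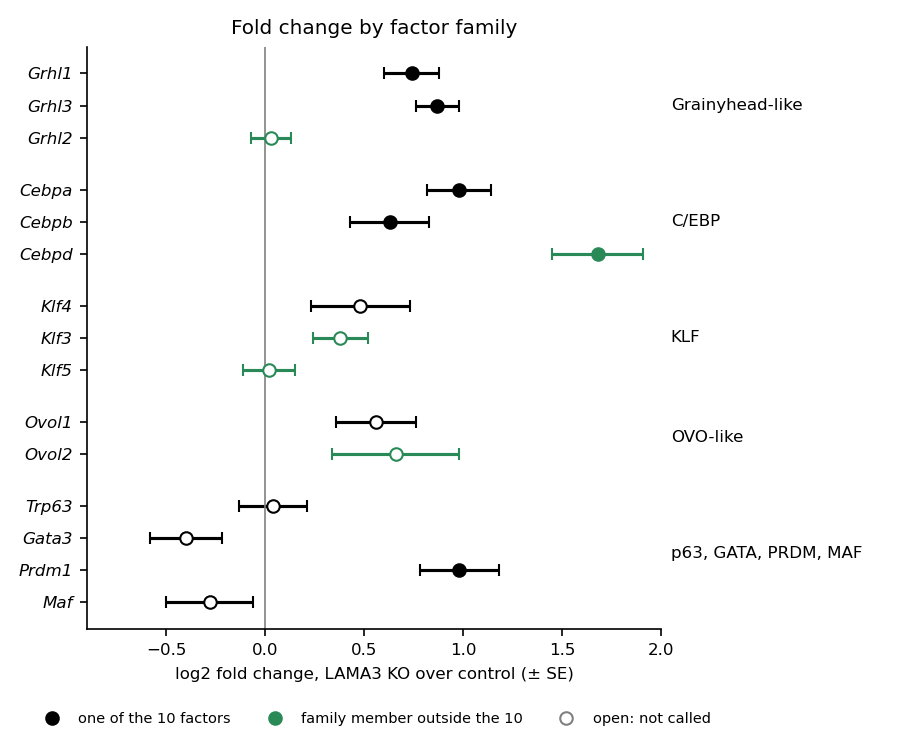
Log2 fold change of LAMA3 KO over control with SE for the 10 factors (black) and 5 paralogs outside the set (green), by family, with filled points at an adjusted p under 0.05 in edgeR. The C/EBP points all lie above 0 and are filled, but Cebpb lost its call under 6 of 16 alternatives, upper-quartile factors among them. The grainyhead-like points split between Grhl1 and Grhl3 (0.74 and 0.87) and Grhl2 (0.03), which turned negative with upper-quartile factors.

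A list of 26 further transcription factors and nuclear receptors of epidermis was chosen with earlier results of these data known. It held 8 that rose, 1 that fell and 17 that were not called, with a median log2 fold change of 0.28. Of all genes tested, 17.4% rose and 18.8% fell. Ppard, the lipid-sensing receptor PPAR delta, was at 73.3, 51.7 and 70.5 CPM in knockouts 1, 2 and 3 and at 23.9, 29.3 and 30.9 CPM in controls 1, 2 and 3 (log2 fold change 1.22, SE 0.17, adjusted p = 0.00266). The vitamin D receptor gene Vdr rose by 0.63 (SE 0.14) on the log2 scale, and Pou2f3, a POU factor of the suprabasal layers, by 0.48 (SE 0.11). Dlx3, a homeobox factor of the suprabasal layers and the hair follicle, was at 22.2, 24.99 and 14.6 CPM in knockouts 1, 2 and 3, against 7.19, 11.8 and 11.4 CPM in controls 1, 2 and 3 (log2 fold change 1.03, SE 0.26, adjusted p = 0.0187), a call lost without knockout 1 or knockout 2 (edgeR's adjusted p = 0.0592 and 0.0563). Ets1, which in mice holds back terminal differentiation when forced on, fell to 12.4, 15.9 and 18.4 CPM in knockouts, against 29.3, 19.9 and 27.8 CPM in controls (-0.72, SE 0.20, adjusted p = 0.0264). The number of the list that rose was 3 without knockout 1, 5 without knockout 2, control 1 or control 3, and 5 with upper-quartile factors, and Ets1 was not called without knockout 1, knockout 2, control 1 or control 3 (edgeR's adjusted p between 0.0635 and 0.0848). Pou2f3 was not called without knockout 1 or control 3 (edgeR's adjusted p = 0.0530 and 0.0687).

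**Figure D4:**
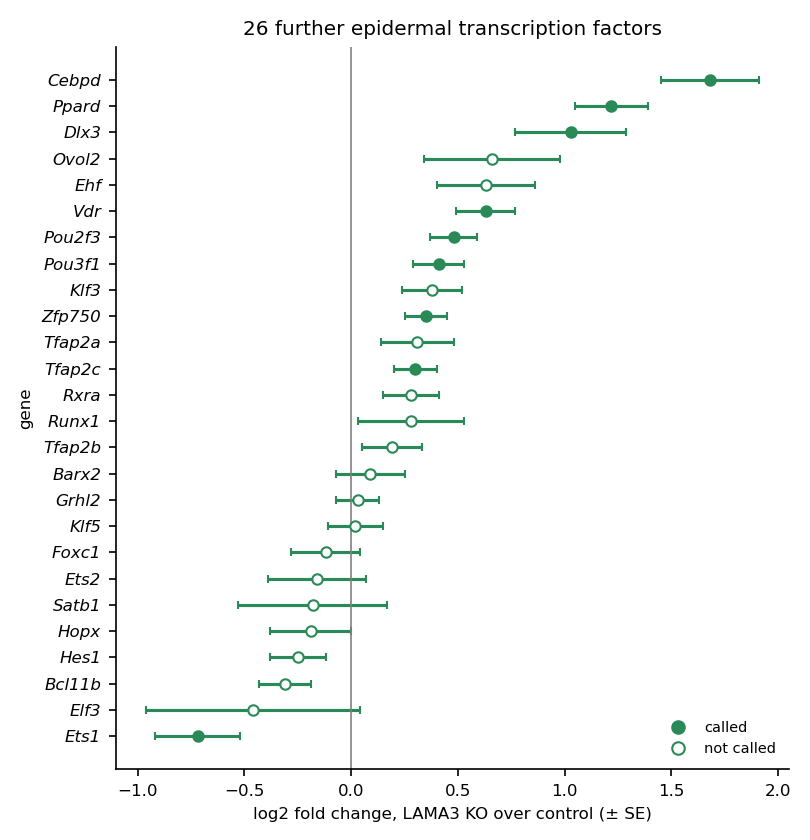
Log2 fold change of LAMA3 KO over control with SE for 26 further epidermal transcription factors, sorted, with filled points at an adjusted p under 0.05 in edgeR. Filled points on the right number 8, led by Cebpd at 1.68, and the 1 on the left is Ets1 at -0.72.

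A list of 15 genes that published skin work ties to at least 1 of the factors was also chosen with earlier results known. It held 5 that rose, 1 that fell and 9 that were not called, with a median log2 fold change of 0.45. The shares over all genes tested were 17.4% higher and 18.8% lower. The list mixes genes that a factor activates with genes that a factor represses, so these counts do not measure the activity of the factors. Tgm1, a GRHL3 target, was at 146, 132 and 151 CPM in knockouts 1, 2 and 3, against 31.4, 34.7 and 30.3 CPM in controls 1, 2 and 3 (log2 fold change 2.16, SE 0.11, adjusted p = 0.000226). Arhgef19, another gene that GRHL3 activates in mouse epidermis, moved the other way, to 20.9, 20.1 and 24.3 CPM in knockouts, against 38.3, 48.2 and 36.6 CPM in controls (-0.91, SE 0.14, adjusted p = 0.00416). Dusp16, a phosphatase gene, is on the list for its tie to Blimp1, whose direction was not used here. It was at 93.8, 97.2 and 58.9 CPM in knockouts and at 39.5, 30.9 and 34.7 CPM in controls (1.25, SE 0.20, adjusted p = 0.00446). Its rise is therefore no measure of Blimp1 activity. The spinous keratins Krt1 (1.77, SE 0.43) and Krt10 (1.16, SE 0.29) and the cornified envelope gene Lor (3.33, SE 0.60) rose as well. Krt1 lost its call without knockout 1 (edgeR's adjusted p = 0.0567), and Krt10 without knockout 1, control 1 or control 3 (0.0724, 0.0570 and 0.0654). Without knockout 1, 3 genes of the list rose. The genes tied to p63, which were Krt5, Krt14, Perp, Jag2 and Fgfr2, were not called, with adjusted p between 0.171 and 0.667. Myc, which Ovol1 represses, was at 97.4 to 148 CPM in knockouts and at 89.8 to 146 CPM in controls.

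Of 9 markers of the suprabasal layers, 6 rose, 2 were not called and 1 (Flg) was below the filter. Without knockout 1, 3 of them rose. Their summed level was 30781 to 46814 CPM in knockouts and 14780 to 17285 CPM in controls. Of these markers, Krt1, Krt10, Dsg1a and Lor are also on the list of genes tied to the factors. The rises of Krt1, Krt10 and Lor are therefore counted in both lists. Krt5 and Krt14 are on both that list and the basal list. Of 7 basal markers, 2 rose, 1 fell and 4 were not called, counts that changed under several alternatives (no basal marker rose without knockout 1, knockout 2 or control 3), with a sum of 15353 to 21024 CPM in knockouts and 16271 to 22609 CPM in controls. Suprabasal markers thus moved upward in the same libraries as Grhl1, Grhl3, Cebpa, Cebpb and Prdm1, and the part of a changed mix of layers in the levels of these factors was not tested.

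**Figure D5:**
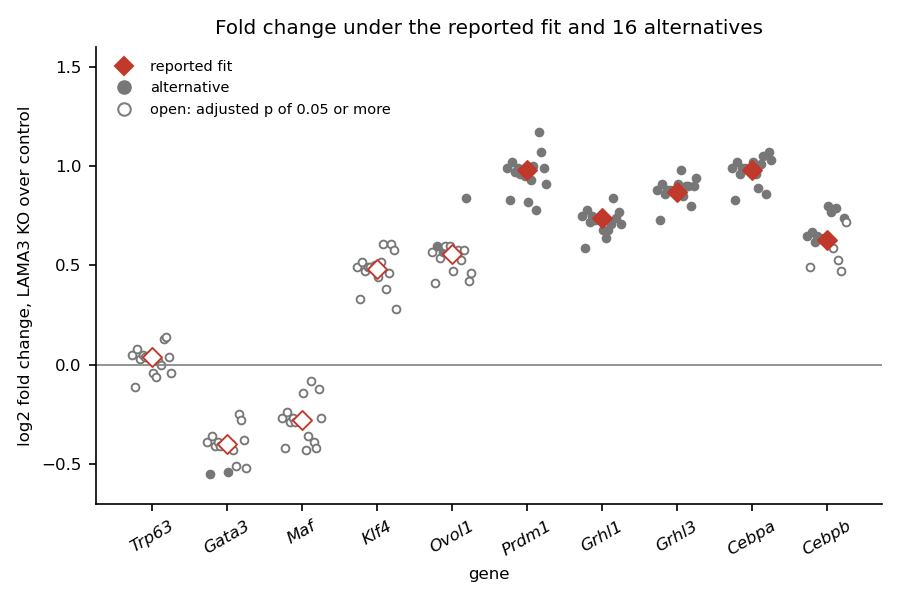
Log2 fold change of LAMA3 KO over control for each of the 10 factors in the reported fit (red diamonds) and under 16 alternative settings (grey circles), filled where the adjusted p was under 0.05. Grhl1, Grhl3, Cebpa and Prdm1 are filled and above 0 throughout, Cebpb is filled in 10 of 16 alternatives, and Trp63 points lie on both sides of 0.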

How the data were processed

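RNA-seq was run on keratinocytes of 3 LAMA3-deficient and 3 control mice, grouped by the sample titles. The authors deposited raw counts per Ensembl gene, 1 column per library. The build GRCm38 and the tools featureCounts 1.4.6, TopHat 1.3.3 and Cuffdiff 1.3.0 are named in the submitters' processing notes. Their settings, the use of strand and the annotation release are not given in the sources used here, so reads of overlapping genes on opposite strands cannot be told apart. Beside Cebpb and Ovol1, such overlaps were Maf with Gm15655 (440 bases), Gata3 with Gm13256 (155 bases) and Cebpa with Gm45091 (51 bases). Of 45513 identifiers 44671 were given a symbol through GENCODE M21 (GRCm38). The others held 0.0517% to 0.118% of each library and were kept.

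Counts were tested with edgeR 4.0.16 in R 4.3.3 (TMM, filterByExpr, robust quasi-likelihood fit, group only, 6 libraries, Benjamini-Hochberg over 15513 genes). The group fits of edgeR, limma-voom and DESeq2 were tested on counts simulated with the spread of these data. That simulation covered no other step. Shares were compared with an exact permutation test. Log2 CPM used a prior count of 2. The precision of a level is set by its count and by 3 mice a group. The factors and lists were chosen with earlier results of these data known, and 3 genes of the lists are not reported here. Named were the 10 factors, Lama3, up to 5 called genes per direction of the 2 lists of further factors and of linked genes, the first 2 markers of each cell type list and, outside this rule, paralogs and other single genes picked after their values were seen. Alternatives were other scalings, filters and tools (DESeq2 1.42.0, limma-voom 3.58.1), a fit that was not robust, a block for the replicate number, sex as a covariate, offsets for GC content and exon length (99.5% of genes), and each library left out.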

Additional observations from a re-analysis of the deposited data

How the results depend on the processing

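Grhl1, Grhl3, Cebpa and Prdm1 were called higher under all 16 alternatives, with log2 fold changes of 0.59 to 0.84, 0.73 to 0.98, 0.83 to 1.07 and 0.78 to 1.17. Cebpb was called under 10 of 16. Leaving out 1 library at a time, 4 to 5 of the factors were called higher and 0 lower. Gata3 was the 1 factor called lower when upper-quartile factors were used, and again the 1 in the fit that included sex. Among all genes, leaving out 1 library gave 1586 to 2754 higher and 1714 to 2771 lower, against 2693 and 2919 with all libraries, and upper-quartile factors gave 1756 higher and 3988 lower. For the 26 further factors, leaving out 1 library gave 3 to 6 higher and 0 to 1 lower, against 8 and 1. Of them 5 were higher under upper-quartile factors and 5 with the replicate block, and 2 were lower under upper-quartile factors and 2 under the GC and length offsets. For the 15 linked genes it gave 3 to 6 higher and 1 lower. To 2 decimals, signs turned negative for Trp63 with upper-quartile factors (-0.11), sex (-0.04), the offsets (-0.06) and without control 3 (-0.04), for Grhl2 with upper-quartile factors (-0.12), the offsets (-0.17) and without control 1 (-0.01), and for Klf5 with upper-quartile factors (-0.13), sex (-0.07), the offsets (-0.05), without knockout 2 (-0.05) and without control 3 (-0.07). With 1 library left out the log2 fold changes ran between -0.04 and 0.14 for Trp63, -0.01 and 0.11 for Grhl2, and -0.07 and 0.11 for Klf5. The cause was not tested. The Cebpa share difference ran between 2.69 and 6.56 percentage points and the Grhl1 share difference between -3.50 and -0.848 with 1 library left out.

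The groups share replicate numbers in their titles, but nothing in the labels pairs the mice. Deviations from the group means correlated at -0.11, -0.10 and 0.42 over genes for the same-numbered libraries 1, 2 and 3, so the block was not used. With the replicate block, Cebpb was at an adjusted p of 0.0583 in edgeR, 2422 genes were higher and 2701 lower. Not every library correlated best with its own number. With the block, no other call among the 10 factors changed. The median SE of all genes was 0.18 on the log2 scale with 3 mice a group, and the SE of Klf4 was 0.25.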

Other observations

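Likeness between profiles was measured as the root mean square difference of log2 CPM after each gene was centred on its mean over the 6 libraries, which share their depth and group structure, and is given as a description. Among the factors, Grhl3 and Cebpa were nearest to each other (0.108 on the log2 scale), and Grhl1 was nearest to Grhl3 (0.149). Maf was the farthest from any other, at 0.415 from Trp63. Of the 26 further factors, Klf5 lay closest to Trp63 (0.0448), Pou2f3 to Grhl1 (0.140), Vdr to Grhl3 (0.144) and Ehf to Cebpb (0.148). Among all tested genes with a mean of at least 5 CPM and a gene symbol, the nearest were Ss18 to Trp63 (0.0218), Kazn to Grhl3 (0.0252), Epg5 to Grhl1 (0.0337), Plcd3 to Klf4 (0.0360), Sh3rf1 to Cebpa (0.0417), Cd99l2 to Gata3 (0.0475), Fam83g to Cebpb (0.0684), Sbsn to Prdm1 (0.0714), Fam110c to Ovol1 (0.0741) and Prag1 to Maf (0.0797). Of these, Sbsn encodes suprabasin, a protein of the suprabasal layers, and is on the list of suprabasal markers used above. Phf24 (0.0737) and Pacsin2 (0.0757), which are not on that list, were about as near to Prdm1.

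In the 5 factors that rose every knockout lay above every control, so their direction within each sex was fixed in advance. The log2 ratio of mean CPM, knockout over control, was between 0.84 and 1.32 for these 5 genes in females (2 knockouts, 1 control) and between 0.52 and 0.76 in males (1 knockout, 2 controls). For Ovol1 it was 0.14 in females and 0.80 in males, and for Klf4 0.22 and 0.67. With 1 female control and 1 male knockout, the difference between the sexes was not tested.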
